A study of Homo sapiens with 48 samples.

Results

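The question addressed here was whether the transcriptional response to a Mediator kinase inhibitor depends on the serum in which parental 22Rv1 cells are grown. 22Rv1 is a human castration-resistant prostate cancer cell line. RNA was sequenced from 12 cultures of the parental line, labelled Rv1_WT, of 48 libraries in the series, and the contrast was (CSS SNX631 minus CSS vehicle) minus (FBS SNX631 minus FBS vehicle), with 3 libraries in each of the 4 groups. Both FBS groups were kept in medium with fetal bovine serum and received 0.1% DMSO as vehicle or 500 nM SNX631, an inhibitor of the kinases CDK8 and CDK19, for 72 h. Both CSS groups were given the same treatments in serum stripped with charcoal (CSS) and so poor in androgens. CSS cells had also spent a passage in CSS and were seeded at 300000 rather than 200000 cells per well, so serum, passage and density cannot be told apart in any effect of medium. The study describes the 3 cultures of each group as biological replicates. The members are the 59 genes, of 20009 tested (0.295%), whose SNX631 response differed between the media by more than 1.5-fold with a Benjamini-Hochberg adjusted p (FDR) under 0.01 in edgeR's quasi-likelihood test. Rv1_Luc, a derivative made by lentiviral transfer of firefly luciferase and put through the same 4 conditions in 12 further libraries, served as the comparison.

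CDK8 and CDK19 are alternative kinases of the Mediator complex, which links transcription factors to RNA polymerase II. The study describes a positive role, in which they strengthen gene induction by signals and stress, and also a negative one. Charcoal stripping removes steroids, among them androgens, on which prostate cells depend, and also other lipophilic serum components. The endoplasmic reticulum (ER) folds secreted and membrane proteins with a set of chaperones whose genes are raised together in the unfolded protein response by the factors ATF6 and XBP1, which bind the ER stress response element (ERSE) in their promoters. Genes of cholesterol synthesis are driven together by SREBF2, and fatty acid synthesis by SREBF1.

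Rv1_WT libraries held 13.2 to 18.2 M counts, and replicates of a group differed by more than sampling noise in every pair. Luciferase and blasticidin resistance transcripts were at 0 in all 12, and FOXA1, keratin and other luminal prostate transcripts of the label check summed to 52648 to 77620 counts. Plasma cell markers summed to 0 to 4 counts per library and leukocyte markers to 7 to 22. Of 7 plasma cell markers 3 were at 0 in all 12 libraries. The 6 fibroblast markers summed to 234 to 272 counts in FBS vehicle, 309 to 413 in FBS SNX631, 255 to 374 in CSS vehicle and 403 to 474 in CSS SNX631, and their part in the results below was not tested. In such bulk samples fewer cells of a type and less RNA per cell cannot be told apart. Of the 59 genes 29 have exons that overlap another gene in GENCODE release 29, whose GRCh38 coordinates are given below, and whether the counting used strand is not given in the sources used here. Levels are given as CPM, counts set against each library's TMM-scaled total, for each library in turn. A gene is said to rise or fall where that change had an edgeR FDR under 0.05. Differences and changes are on the log2 scale, where a positive interaction means a more positive SNX631 effect in CSS than in FBS.

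The SNX631 response was more positive in CSS for 49 genes (0.245% of genes tested) and more negative for 10 (0.05%). The split was 35 to 13 when libraries were scaled by their size alone, and 17 rather than 10 genes were more negative without CSS SNX631 replicate 1. In 25 of the 49 the fitted change was negative in FBS and positive in CSS, in 23 it was positive in both media with the larger value in CSS, and in 1 it was negative in both. In 7 of the 10 it was positive in FBS and negative in CSS. By the same FDR and fold limits, SNX631 alone was called for 2.39% of all genes in FBS and 4.23% in CSS. Among the 49, 16 were called higher in CSS and not in FBS, 5 lower in FBS and not in CSS, 11 higher in both, and 17 in neither medium. Of the 10, 3 were called lower in CSS and not in FBS, 4 higher in FBS and not in CSS, and 3 in neither. By the same limits 30 of the 49 were lower in CSS than in FBS under vehicle (4.78% of all genes) and 8 of the 10 were higher (6.09%), where 10.9% of all genes were called in either direction. Under SNX631 the media differed for 7.83% of all genes, and for 13 of the 49 and 5 of the 10. These effects use the same 12 libraries as the interaction, so the counts describe its parts and add no evidence for it.

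**Figure D1:**
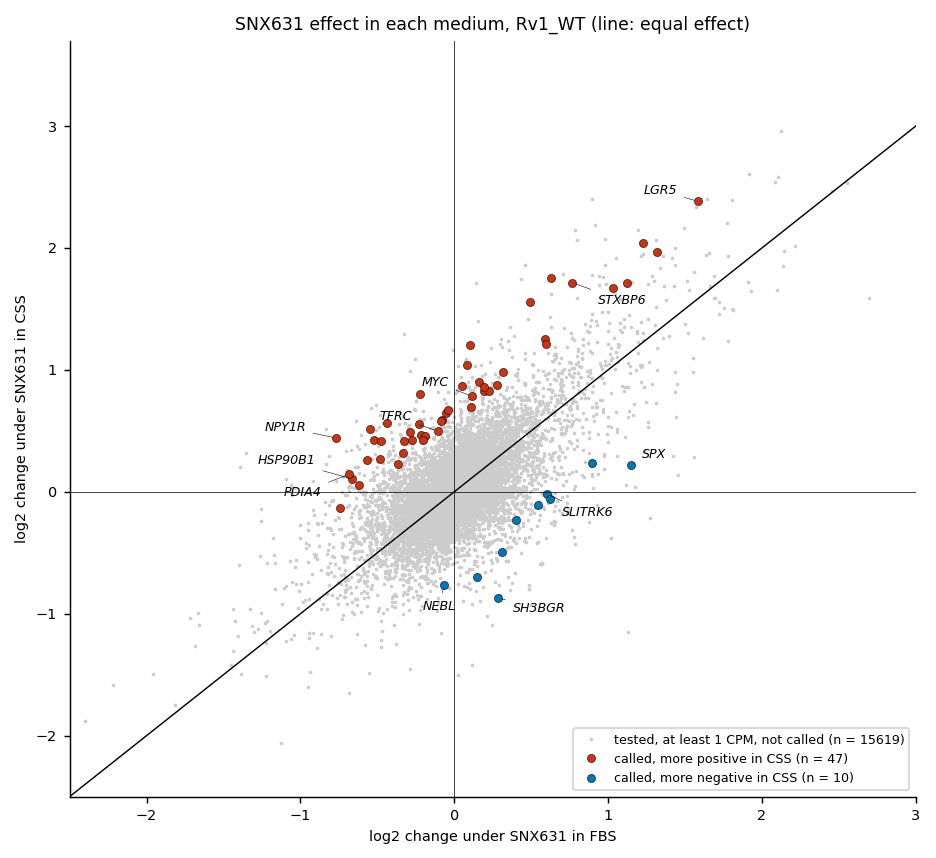
Log2 change under SNX631 in FBS (x axis) against that in CSS (y axis) for each tested Rv1_WT gene with a mean of at least 1 CPM, with 57 called genes in colour and a line at equal effect. The 47 genes in red lie above the line, the 10 in blue lie below it, and 4 uncalled genes fall outside the axes.

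The ER chaperone genes HSP90B1 and PDIA4 fell under SNX631 in FBS and rose slightly in CSS. With CALR they had the lowest interaction p-values of all 20009 genes, and CRELD2 and the ER-associated degradation gene DERL3 were also called. In CSS vehicle each of these genes was at a lower level than in FBS vehicle, with log2 changes from -1.48 for PDIA4 to -0.92 for CRELD2. HSP90B1 (ENSG00000166598, chr12:103930107-103953645, plus strand, GRCh38) encodes GRP94, the HSP90 of the ER lumen. In FBS it measured 2238, 2235 and 2168 CPM under vehicle and 1384, 1441 and 1360.1 CPM under SNX631. In CSS the levels were 1009, 1058 and 1067 CPM and 1068, 1173 and 1134 CPM. All 3 treated libraries in FBS lay below all vehicle libraries, and those in CSS lay just above. Groups did not overlap for 30% of all genes in FBS and 38% in CSS, nor did the vehicle groups of the media for 51.9%. The SNX631 change was -0.67 in FBS and 0.11 in CSS, an interaction of 0.77 ± 0.0577 (SE, edgeR FDR 8.34e-15).

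PDIA4 (chr7:149003062-149028641, minus strand), an ER protein disulfide isomerase, followed the same course. It was at 504, 499.9 and 483 CPM in FBS under vehicle and at 299, 315 and 311 CPM under SNX631. CSS levels were 174, 176 and 184 CPM under vehicle and 194, 205 and 190.5 CPM under SNX631, and no library of a treated group overlapped its vehicle group. Its interaction was 0.83 ± 0.0712 (edgeR FDR 1.39e-12). CALR (chr19:12938578-12944489, plus strand), calreticulin, a lectin chaperone of glycoproteins, stood at 1229.6, 1196 and 1209 CPM and with SNX631 at 971, 979 and 931 CPM in FBS. In CSS it went from 482, 519.8 and 540.0 CPM to 622, 677 and 625 CPM, so the SNX631 change was -0.34 in FBS and 0.32 in CSS, each under 1.5-fold and opposite in sign. The interaction of CALR was 0.65 ± 0.0623 (edgeR FDR 4.96e-11).

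CRELD2, an ER protein raised by ER stress, had group means of 177 and 155 CPM in FBS and 93.5 and 129 CPM in CSS, vehicle before SNX631, and an interaction of 0.65 (edgeR FDR 0.00365). That call was lost without CSS vehicle replicate 1 (0.60), FBS vehicle replicate 1 (0.63) or FBS SNX631 replicate 1 (0.64). DERL3, a derlin of the channel that returns misfolded proteins to the cytosol, had means of 31.0 and 24.8 CPM in FBS and 14.5 and 19.4 CPM in CSS (interaction 0.74, edgeR FDR 6.34e-05). MIR3652, a microRNA gene inside HSP90B1 on the same strand, shares reads with it, and its call (0.68) cannot be told apart from that of its host. Exons of HSP90B1, CALR, CRELD2 and DERL3 also overlap genes on the other strand.

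The list of 28 ER chaperones and folding enzymes held 4 of these calls, HSP90B1, PDIA4, CALR and CRELD2. Its median interaction was 0.16, with 20 genes positive and 8 negative, beside 0.0045 and 50.9% positive over all genes tested. At an FDR under 0.05 with no fold limit, which 3.13% of all genes passed, 10 of the 28 had a positive interaction and 0 a negative one, where 2.2% of all genes were positive and 0.93% negative. At an unadjusted p under 0.05, which 14.62% of all genes passed, the counts were 13 and 2. DESeq2 gave 12 and 0 at its FDR under 0.05. HSPA5 (BiP), the master chaperone of the ER, fell in both media, by 0.77 in FBS and by 0.23 in CSS, and its interaction of 0.54 (edgeR FDR 8.07e-07) was under the fold limit. The disulfide isomerase genes PDIA6 (0.47, edgeR FDR 7.39e-07) and PDIA3 (0.31, edgeR FDR 3.79e-05) were also among the 10. The list level, its median over genes against the FBS vehicle mean, was -0.025 to 0.016 in FBS vehicle libraries and -0.20 to -0.14 in FBS SNX631 libraries. In CSS it was -0.47 to -0.40 under vehicle and -0.48 to -0.44 under SNX631, so the CSS groups overlapped.

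Other lists of the secretory pathway had median interactions nearer 0, and their difference from the chaperone list was not tested. ER-associated degradation (19 genes) had a median of 0.015, with HERPUD1 (0.27, edgeR FDR 0.015) the other gene beside DERL3 under an FDR of 0.05. Translocation and N-glycosylation (30 genes) had a median of 0.052 and 3 genes under that FDR, SPCS3 (0.30), SRPRA (0.21) and RPN1 (0.17), all positive. These are 2 of 19 and 3 of 30 genes beside 2.2% of all genes, and at an unadjusted p under 0.05 the counts were 3 positive and 2 negative for degradation and 8 and 0 for translocation. ER to Golgi transport (26 genes) had a median of -0.0094, and no gene passed in edgeR, while DESeq2 passed 2. Of its genes 4 had an unadjusted p under 0.05, beside 14.62% of all genes. Among 11 sensors and transcription factors of the unfolded protein response the median was -0.029, and it was 0.021 without FBS vehicle replicate 3. ATF6 (-0.25) and the kinase gene ERN1 (-0.39), which starts XBP1 splicing, passed with a negative sign (edgeR FDR 0.0108 and 0.0368), opposite to the chaperones. XBP1 itself had an interaction of 0.080 (edgeR FDR 0.532), ATF4 of 0.043 (edgeR FDR 0.869) and DDIT3 of 0.053 (edgeR FDR 0.827). DDIT3, the stress factor CHOP, fell by 0.74 in FBS and by 0.68 in CSS.

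The ER stress response element was looked for in the promoters of the called genes and of the ER lists. It was spelled CCAAT, 9 bases of any kind, then CCACG, and was searched on both strands of the 250 bases before each gene start in RefSeq (GRCh38.p14). Of 35116 promoters, 26 (0.074%) held it. Of 37 promoters of 27 matched ER chaperone genes, 8 (21.6%) did, belonging to HSP90B1, CALR, CRELD2, HSPA5, PDIA6, CANX and ERO1B. ERSE is known from the promoters of such chaperone genes, so this share is no test of the SNX631 response. Among 71 promoters of 41 matched called genes it was found in HSP90B1, CALR and CRELD2. The related ERSE-II, ATTGG, 1 base, CCACG, was in 18 of all promoters, in HYOU1, SDF2L1 and HERPUD1 of the ER lists and in 0 of the 71. PDIA4 and DERL3 held neither, which says only that these letters are not in the window. The 250 bases before the start are shown for the 3 called genes that hold ERSE and for HSPA5, 5′ to 3′ toward the gene, with each ERSE match and its spacer in capitals (HSP90B1 chr12:103930160-103930409, plus strand, CALR chr19:12938359-12938608, plus strand, CRELD2 chr22:49918384-49918633, plus strand, HSPA5 chr9:125241344-125241593, minus strand).
HSP90B1: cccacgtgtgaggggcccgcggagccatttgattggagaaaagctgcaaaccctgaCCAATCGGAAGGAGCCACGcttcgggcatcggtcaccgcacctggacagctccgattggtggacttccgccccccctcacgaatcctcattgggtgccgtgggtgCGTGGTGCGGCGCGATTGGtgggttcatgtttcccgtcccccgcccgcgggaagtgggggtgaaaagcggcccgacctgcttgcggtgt
CALR: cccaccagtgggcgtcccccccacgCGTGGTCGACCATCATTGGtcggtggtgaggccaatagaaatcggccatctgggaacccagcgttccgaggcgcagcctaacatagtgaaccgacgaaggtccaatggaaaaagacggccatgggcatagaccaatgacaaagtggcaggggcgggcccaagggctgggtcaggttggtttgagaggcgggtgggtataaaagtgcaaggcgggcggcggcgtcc
CRELD2: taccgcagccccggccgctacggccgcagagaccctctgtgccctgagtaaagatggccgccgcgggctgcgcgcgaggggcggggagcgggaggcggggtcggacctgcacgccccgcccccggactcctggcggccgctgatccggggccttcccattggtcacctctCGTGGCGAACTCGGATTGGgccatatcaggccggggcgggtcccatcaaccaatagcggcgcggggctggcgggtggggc
HSPA5: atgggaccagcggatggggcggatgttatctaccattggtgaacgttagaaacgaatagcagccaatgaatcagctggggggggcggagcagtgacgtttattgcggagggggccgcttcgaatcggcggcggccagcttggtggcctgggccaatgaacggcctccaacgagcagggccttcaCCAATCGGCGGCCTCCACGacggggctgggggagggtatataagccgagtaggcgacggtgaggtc
HSP90B1 holds 2 matches, 1 on each strand, that end 175 and 70 bases before the start. Those of CALR and CRELD2 read on the opposite strand, 206 and 61 bases before the start, and that of HSPA5 reads on the gene's strand, 47 bases before it.

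**Figure D2:**
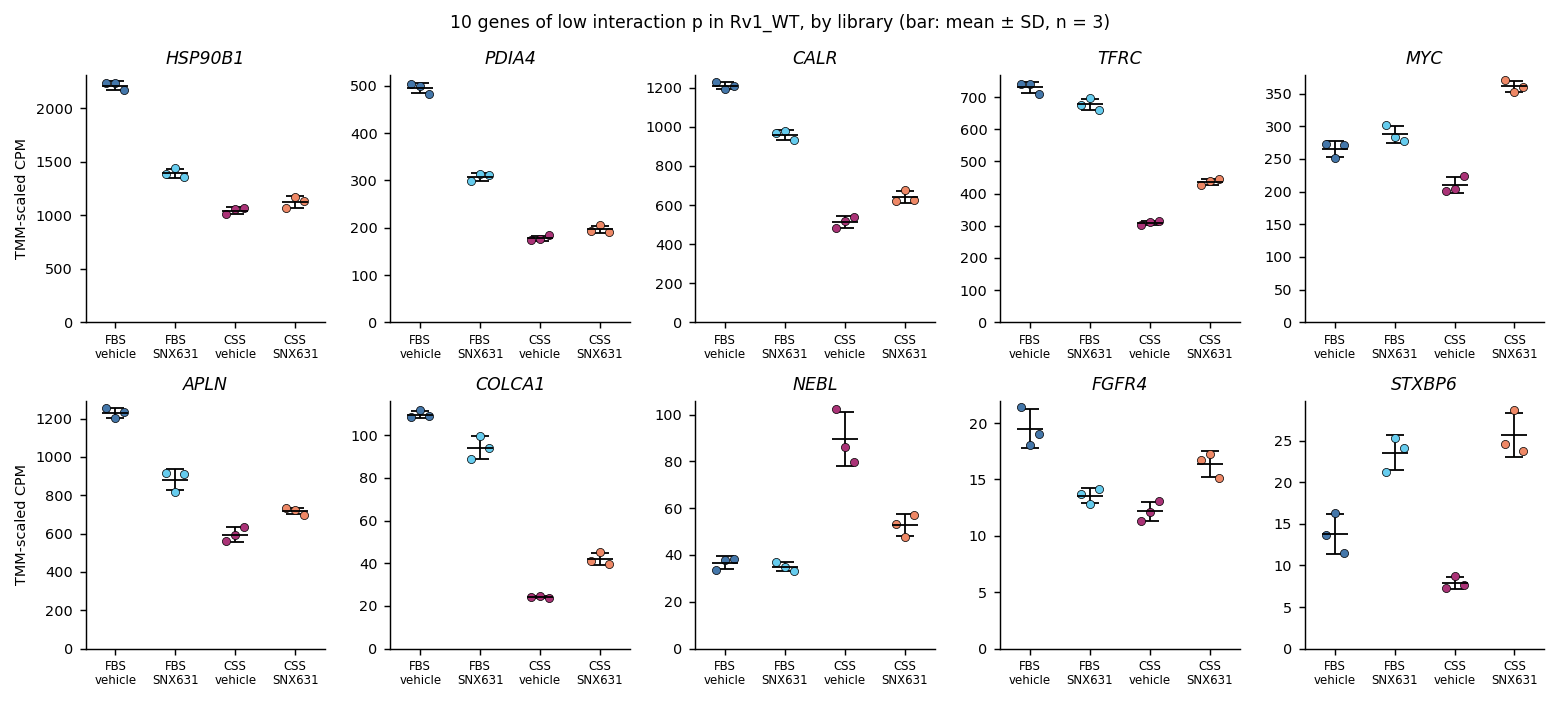
TMM-scaled CPM (y axis, from 0) of 10 genes among those of lowest interaction p in each Rv1_WT library, by medium and treatment, with the mean and SD of 3 libraries. HSP90B1 and PDIA4 drop with SNX631 in FBS only, MYC and TFRC rise in CSS, and NEBL falls in CSS.

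MYC and the transferrin receptor gene TFRC rose under SNX631 in CSS and did not pass the test in FBS. MYC, a transcription factor of growth and ribosome production (chr8:127735434-127741434, plus strand), was at 273, 251 and 272 CPM in FBS under vehicle and at 302, 283 and 278 CPM under SNX631. In CSS it went from 201, 205 and 223 CPM to 370.3, 353 and 360.4 CPM, above every FBS library. The SNX631 change was 0.12 in FBS (edgeR FDR 0.107) and 0.78 in CSS, an interaction of 0.67 ± 0.0691 (edgeR FDR 6.77e-10). TFRC (chr3:196027183-196082189, minus strand), which brings iron into dividing cells, measured 740.5, 739 and 709.7 CPM and then 675, 696 and 660.3 CPM under SNX631 in FBS. Its CSS levels were 302, 311 and 315 CPM under vehicle and 426, 440.2 and 444 CPM under SNX631. TFRC changed by -0.11 in FBS (edgeR FDR 0.0908) and 0.50 in CSS, where no library reached an FBS level, with an interaction of 0.61 ± 0.0624 (edgeR FDR 6.75e-10), called in all but the scaling by library size alone.

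The list of MYC and 21 nucleolar and ribosome biogenesis genes had a median interaction of 0.19, 20 positive and 2 negative. MYC was its call, and NOP56 (0.26), WDR43 (0.24) and NPM1 (0.21), which act in the nucleolus, were among its 5 genes that passed an FDR of 0.05. Its list level was -0.18 to -0.15 in CSS vehicle and 0.037 to 0.12 in CSS SNX631 libraries. In FBS the level was -0.031 to 0.024 under vehicle and 0.086 to 0.13 under SNX631, higher in both media and by more in CSS. GADD45B (0.69), a stress-induced growth arrest gene, and S100A6 (0.74), a calcium-binding protein, were also called higher in CSS and not in FBS. The same held for TRIM3 (0.59), RIMKLB (0.60), the prostaglandin transporter SLCO2A1 (0.67), the syndecan SDC2 (0.60), the phosphatase inhibitor PPP1R1A (1.104), the Notch glycosyltransferase LFNG (0.96), VIPR1 (0.67), the progestin receptor PAQR5 (0.71) and ZNF503-AS2 (0.82). ZNF503-AS2 overlaps ZNF503 on the other strand, and their reads may not be told apart.

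Androgen-responsive genes had more positive SNX631 effects in the androgen-depleted medium. Of the 23 genes of the androgen response list 21 were measured, and 20 had a positive interaction, with a median of 0.37. In the list 1 gene was called and 12 passed an FDR of 0.05, all positive, among them TMPRSS2 (0.58, edgeR FDR 0.000321), FKBP5 (0.43), HPGD (0.52) and PMEPA1 (0.30). Their FBS and CSS changes took several forms. The prostate serine protease gene TMPRSS2 changed by 1.36 in FBS and 1.94 in CSS, and FKBP5, a steroid receptor cochaperone, by 0.017 and 0.44. HPGD, which degrades prostaglandins, fell by 0.52 in FBS and changed by -0.0049 in CSS. KLK3, the gene of prostate-specific antigen, fell in both, with 10.5, 11.6 and 9.93 CPM under vehicle and 3.74, 5.16 and 4.48 CPM under SNX631 in FBS. In CSS KLK3 was at 8.62, 8.30 and 8.60 CPM and 6.25, 5.22 and 6.25 CPM, and its interaction of 0.74 had an edgeR FDR of 0.0363. The list level was -0.54 to -0.46 in CSS vehicle and -0.36 to -0.27 in CSS SNX631 libraries, against -0.0081 to 0.0061 and 0.0077 to 0.089 in FBS.

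Among 11 luminal identity genes, the pioneer factor gene FOXA1 (0.36, edgeR FDR 3.94e-06) and SPDEF (0.42, edgeR FDR 2.40e-05) were 2 of 3 that passed an FDR of 0.05. FOXA1 fell by 0.29 in FBS and changed by 0.075 in CSS. TTC6, which overlaps FOXA1 on the other strand, was called (0.60), and its reads may not be told apart from those of FOXA1.

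Cholesterol synthesis genes had lower levels under SNX631 in FBS, with a median change of -0.35, and a median change of 0.022 in CSS. Of 24 cholesterol synthesis and uptake genes 23 had a positive interaction, with a median of 0.42, and 14 passed an FDR of 0.05. LSS, lanosterol synthase, was called, with group means of 318 and 262 CPM in FBS and 114 and 152 CPM in CSS (interaction 0.70 ± 0.137, edgeR FDR 0.00202). The call was lost without CSS vehicle replicate 1 (0.66) or CSS SNX631 replicate 2 (0.63). TM7SF2 (0.57), DHCR7 (0.53) and MVK (0.40), enzymes of the same pathway, had lower p-values at smaller differences. The list level was -0.035 to 0.018 in FBS vehicle and -0.36 to -0.30 in FBS SNX631 libraries, and -0.997 to -0.96 and -1.02 to -0.84 in CSS.

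Of 12 measured genes of fatty acid synthesis and desaturation 11 had a positive interaction (median 0.31). The desaturase gene FADS2 (0.51), the ATP citrate lyase gene ACLY (0.32) and SREBF1 (0.43) were among 6 that passed an FDR of 0.05, and DESeq2 called 1 of the list past the fold limit. Here the CSS libraries moved too, from -0.78 to -0.69 under vehicle to -0.59 to -0.50 under SNX631 as a list level. For sterol efflux and LXR targets (7 genes) the median was -0.031. LIPG, endothelial lipase, was called outside these lists, at -0.44 in FBS and 0.56 in CSS (interaction 1.00, edgeR FDR 0.000321), and so was MFSD2A, a lysophospholipid transporter that rose in both media (1.23 and 2.04).

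**Figure D3:**
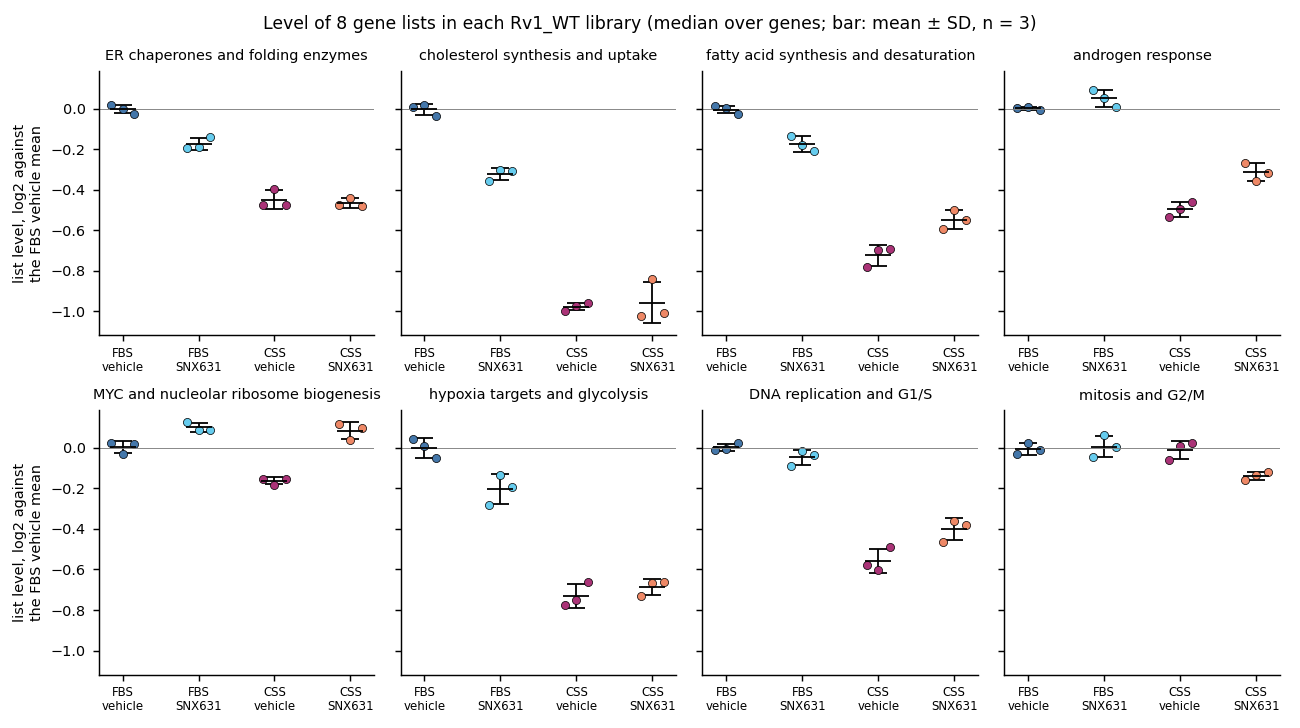
Level of 8 gene lists in each Rv1_WT library (median over the genes of the list, log2 against the FBS vehicle mean, y axis) by medium and treatment, with the mean and SD of 3 libraries. ER chaperone and cholesterol lists drop with SNX631 in FBS and not in CSS, and the mitosis list drops in CSS, to -0.16 to -0.12.

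The called genes for receptors and secreted ligands are given together here, a grouping made after their values were seen. The alpha-2A adrenergic receptor gene ADRA2A changed by -0.55 in FBS and 0.51 in CSS (interaction 1.06). NPY1R, a neuropeptide Y receptor, was called lower in FBS (-0.77) and not in CSS (0.44), and VIPR1, a receptor of vasoactive intestinal peptide, higher in CSS (0.99) and not in FBS (0.32). FZD4, a Wnt receptor, rose in both media (0.59 and 1.25), and so did LGR5, the R-spondin receptor of epithelial stem cells (1.58 and 2.38). Another Wnt receptor gene, FZD7, had the opposite sign of interaction (-0.68), rising by 0.62 in FBS and changing by -0.060 in CSS.

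APLN, the gene of the peptide apelin (chrX:129645259-129654937, minus strand), stood at 1256, 1202 and 1232 CPM in FBS under vehicle and at 917, 818 and 910.5 CPM under SNX631. In CSS it went from 559.9, 590.5 and 634 CPM to 731, 721 and 699 CPM, down in FBS and up in CSS without overlap in either, with an interaction of 0.75 ± 0.0758 (edgeR FDR 1.12e-09). FGFR4, a fibroblast growth factor receptor (chr5:177086886-177098144, plus strand), was at 21.5, 18.1 and 19.0 CPM and then 13.7, 12.8 and 14.1 CPM in FBS. Its CSS levels were 11.3, 12.1 and 13.1 CPM under vehicle and 16.8, 17.3 and 15.1 CPM under SNX631, so that its direction also turned with the medium (interaction 0.95 ± 0.141, edgeR FDR 5.15e-06). KITLG, the ligand of the KIT receptor, changed by -0.22 in FBS and 0.47 in CSS (interaction 0.69, and 0.58 with the call lost without CSS SNX631 replicate 2). SPX, the peptide hormone gene spexin, rose by 1.15 in FBS and changed by 0.22 in CSS (interaction -0.93).

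Of the genes called higher in both media, STXBP6, a SNARE-binding regulator of exocytosis (chr14:24809656-25050297, minus strand), measured 13.6, 16.3 and 11.5 CPM and 21.2, 25.3 and 24.2 CPM in FBS. In CSS it rose from 7.28, 8.68 and 7.62 CPM to 24.6, 28.7 and 23.8 CPM, reaching the same treated level from a lower vehicle level (interaction 0.95 ± 0.144, edgeR FDR 8.17e-06). ARHGAP6 (1.03 and 1.67) and ARHGEF3 (1.12 and 1.71), regulators of small GTPases, rose in FBS and CSS in that order. FAIM2 (1.32 and 1.97), an inhibitor of FAS-induced death, the potassium channel gene KCNK5 (0.60 and 1.22) and EGLN3 (0.63 and 1.75) did likewise. COLCA1 (chr11:111290787-111305045, minus strand) was at 108, 112 and 109 CPM in FBS under vehicle and 88.7, 99.8 and 94.2 CPM under SNX631. In CSS it was at 24.01, 24.6 and 23.8 CPM and 41.2, 45.1 and 39.6 CPM, an interaction of 1.02 ± 0.131 (edgeR FDR 1.82e-06). The remaining genes more positive in CSS were LENG9 (0.78), OCEL1 (0.89), the mucin glycosyltransferase gene GALNT12 (0.83), ELFN1-AS1 (0.67) and, listed without a symbol, ENSG00000170846 (0.61, -0.74 in FBS and -0.13 in CSS) and ENSG00000290085 (0.63).

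Of the 59 genes 8 had another called gene within 1 Mb, HSP90B1 and MIR3652 inside it among them. How many would do so by position alone was not tested. Of the 8, 4 lie together on chr12:70366276-71586310 (GRCh38). They are KCNMB4, a potassium channel subunit (0.67), the receptor tyrosine phosphatase genes PTPRB (0.63) and PTPRR (1.06), and LGR5 (0.80). The interval was drawn around these 4 called genes, so their shared sign is no separate evidence about the region. Of its 6 tested genes the others were TSPAN8 (0.34, edgeR FDR 0.0362) and ENSG00000258168 (0.30, edgeR FDR 0.952, mean 0.23 CPM). PTPRB measured 308, 343 and 335 CPM under vehicle and 371, 373 and 381 CPM under SNX631 in FBS. In CSS it was at 173, 181 and 171 CPM and 312, 293 and 324 CPM, with no overlap in either medium. Mean levels of the others were lower, 22.8 CPM for KCNMB4, 8.21 CPM for PTPRR and 9.22 CPM for LGR5 in FBS vehicle, and their calls depended on single libraries. That of KCNMB4 was lost without CSS vehicle replicate 1 (0.62) and that of LGR5 without CSS vehicle replicate 2 (0.71), CSS SNX631 replicate 3 (0.71) or FBS vehicle replicate 1 (0.70). PTPRR kept its call in 3 of 12 such fits, with values from 0.87 without FBS vehicle replicate 2 to 1.23.

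Among the 10 genes more negative in CSS, NEBL had the lowest p. NEBL, nebulette, an actin-binding protein (chr10:20779973-21174187, minus strand), was at 33.5, 38.0 and 38.4 CPM in FBS under vehicle and 36.9, 34.7 and 33.3 CPM under SNX631. In CSS it fell from 102, 86.2 and 80.0 CPM to 53.1, 47.9 and 57.2 CPM, while the FBS groups overlapped. Its interaction was -0.70 ± 0.0997 (edgeR FDR 2.63e-06). SLITRK6, a neuronal membrane protein, rose in FBS by 0.60 and changed by -0.021 in CSS (-0.63, edgeR FDR 5.47e-05). SH3BGR fell in CSS by 0.87 and changed by 0.29 in FBS (-1.16), with 75% of its counts not whole, and it shares exons with a readthrough gene. QRICH2 (-0.85), NAALADL2 (-0.66), ZNF532 (-0.63), the sodium channel regulator UNC80 (-0.65) and ENSG00000278948 (-0.80) complete the 10 with SPX and FZD7.

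Mitosis genes moved the same way as these in smaller steps. All 20 genes of the mitosis and G2/M list had a negative interaction (median -0.16), none past 1.5-fold. At an FDR under 0.05, 7 were negative and 0 positive, and DESeq2 gave 8 and 0 at its FDR under 0.05. At an unadjusted p under 0.05, which 14.62% of all genes passed, the counts were 11 and 0. AURKA (-0.45, edgeR FDR 3.62e-05), PLK1 (-0.38, edgeR FDR 3.47e-05) and CENPF (-0.41, edgeR FDR 0.011), a kinase pair and a kinetochore protein of mitosis, led by p. CCNB1, cyclin B1, changed by -0.13 in FBS and -0.34 in CSS. List levels were -0.031 to 0.024 and -0.045 to 0.061 in FBS and -0.063 to 0.023 and -0.16 to -0.12 in CSS, so the groups overlapped in FBS and not in CSS. The 19 genes of DNA replication and G1/S had the opposite sign in 16, with a median of 0.17 and 8 positive at an FDR under 0.05. TYMS (0.39) and RRM2 (0.31), which supply nucleotides, and the helicase subunit gene MCM3 (0.24) led, and none was past 1.5-fold.

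Hypoxia targets and glycolysis genes (21 measured) had a median interaction of 0.23, with 19 positive. EGLN3, an oxygen-sensing prolyl hydroxylase, and PFKFB3, which sets the rate of glycolysis, were called at 1.13 and 0.79, calls kept in 3 and 4 of the 12 fits without 1 library. Lactate dehydrogenase LDHA (0.55), ALDOA (0.28) and HK2 (0.26) also passed an FDR of 0.05. The ATF4 stress response list (28 genes), whose CSS vehicle level was higher by a median of 0.84, had a median interaction of -0.10. Of its genes 6 were positive and 22 negative, with GDF15 (-0.75) and PPP1R15A (-0.34) past that FDR. In Rv1_Luc the list had a median of -0.21, with 2 of 28 genes positive and 3 past an FDR of 0.05. The 3-way contrast between the lines passed that FDR for 0 of the 28. Cytosolic and mitochondrial heat shock genes (18) split, with DNAJB1 (-0.28) and HSPA8 (-0.25) negative and FKBP4 (0.23) positive. In the aminoacyl-tRNA synthetases (18) WARS1 (-0.38) and in the NRF2 list (13) TKT (0.26), PGD (0.19) and GCLM (-0.38) passed, and in the aryl hydrocarbon receptor list (7) TIPARP (0.38). Over all genes 3.13% passed that FDR, the share to set beside these and the earlier lists. At an unadjusted p under 0.05 (14.62% of all genes) the positive and negative counts were 12 and 0 for hypoxia and glycolysis and 0 and 8 for ATF4. They were 3 and 3 for heat shock, 2 and 3 for tRNA synthetases, 2 and 2 for NRF2 and 2 and 3 for the aryl hydrocarbon receptor.

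The drug's own targets did not pass. CDK8 had an interaction of -0.044 (edgeR FDR 0.885) and CDK19 of 0.054 (edgeR FDR 0.769), and the 7 kinase module genes had a median of -0.044, with 1 at an unadjusted p under 0.05 and 0 at the DESeq2 FDR of 0.05. No gene of the interferon (16 measured), EGF family (9), immediate-early (14) or keratin (8) lists passed an FDR of 0.05 in edgeR or DESeq2. At an unadjusted p under 0.05, which 14.62% of all genes passed, these lists held 1, 1, 2 and 0 genes. Most of the transcriptome was measured closely enough to bound the interaction. Of 15678 genes at 1 CPM or more, 11444 (73.0%) had a 95% interval inside 1.5-fold in both directions. Among the 997 genes called under SNX631 in either medium this held for 249 (24.97%), and 39 (3.91%) were called in the interaction.

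**Figure D4:**
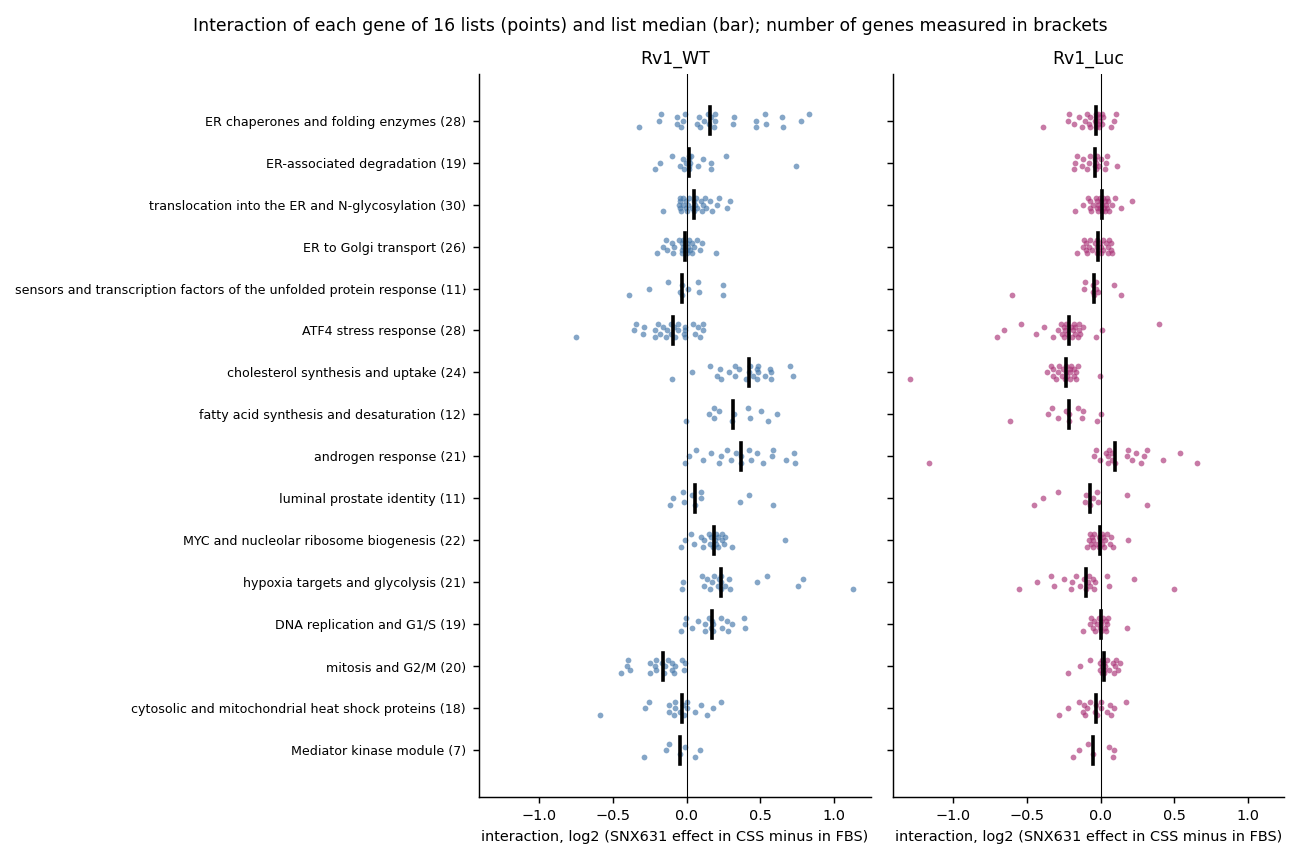
Interaction (x axis, log2) of each gene of 16 lists as points, with the list median as a bar, in Rv1_WT (left) and Rv1_Luc (right). Cholesterol synthesis has a median of 0.42 in Rv1_WT and -0.23 in Rv1_Luc, and the ER chaperone genes that reach 0.83 in Rv1_WT stay near 0 in Rv1_Luc.

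The same contrast in Rv1_Luc, whose libraries are separate, called 16 genes (0.08%), 11 more positive and 5 more negative, and 8 to 31 when a single Rv1_Luc library was left out (8 without FBS SNX631 replicate 1, 27 without FBS vehicle replicate 1 and 31 without FBS SNX631 replicate 2). Between replicates the chi-square per degree of freedom was 1.93 to 9.705 in the deeper Rv1_Luc libraries and 1.90 to 3.11 in Rv1_WT. Its part in the number of calls was not tested. COLCA1 (1.18) and ADRA2A (0.94) were called in both lines, 3.39% of the Rv1_WT calls and 12.5% of the Rv1_Luc calls. Of the 59 genes 33 had the same sign in Rv1_Luc, where 9793 of all 20009 genes tested were positive. The Rv1_Luc median was 0.058 over the 49 genes (0.70 in Rv1_WT) and -0.013 over the 10 (-0.69 in Rv1_WT). These genes were chosen by their Rv1_WT values, which pushes the Rv1_WT medians away from 0. For 41 of the 59 the 95% interval in Rv1_Luc lay inside 1.5-fold, and for 5 it held the Rv1_WT value. The difference between the lines was tested over all genes by the 3-way contrast, which called 51 genes (0.255%), 48 more positive in Rv1_WT and 3 more negative, and 83 without Rv1_Luc CSS SNX631 replicate 1. Of the 59 genes the 3-way contrast called 17, and 28 had an FDR under 0.05 in it, a limit that 1.18% of all genes passed. For the rest of the 59 a difference between the lines was not shown. This contrast uses the same Rv1_WT libraries as the interaction that chose the 59. Plasma cell markers, near 0 in Rv1_WT, summed in Rv1_Luc to 12.3 to 28.8 CPM in FBS vehicle, 1.75 to 11.8 CPM in FBS SNX631, 1.79 to 4.20 CPM in CSS vehicle and 5.50 to 23.0 CPM in CSS SNX631, and JCHAIN, an immunoglobulin chain gene among them, was 1 of the 16 Rv1_Luc calls (3.26). Their part in the Rv1_Luc values was not tested.

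PDIA4 and HSP90B1 had the lowest p-values for the difference between the lines. PDIA4 had a mean of 794 CPM in Rv1_Luc in FBS under vehicle and 377 CPM under SNX631. In CSS the means were 740.3 and 332 CPM, so SNX631 lowered it in both media there. The interaction was -0.080 in Rv1_Luc, a difference of 0.91 ± 0.0986 between lines (edgeR FDR 1.59e-08). HSP90B1 changed by -1.03 in FBS and -0.94 in CSS in Rv1_Luc, and the lines differed by 0.68 (edgeR FDR 1.80e-07). MYC (interaction -0.094 in Rv1_Luc) differed by 0.76 (edgeR FDR 8.39e-07), CALR (0.0092) by 0.65 and TFRC (0.019) by 0.59. CNN3, the actin-binding calponin 3, and GLUL, glutamine synthetase, were under the fold limit in Rv1_WT (0.48 and 0.28) and negative in Rv1_Luc (-0.23 and -0.28).

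The medians of the lipid lists had opposite signs in the lines. Of the 24 cholesterol genes 0 were positive in Rv1_Luc and the median was -0.23, with SNX631 medians of -0.14 in FBS and -0.39 in CSS. In Rv1_WT those medians were -0.35 and 0.022. Rv1_Luc FBS vehicle replicate 1 stood apart in the cholesterol list level, at -0.26 against 0.11 and 0.15 in the other two. Without it the Rv1_Luc median was -0.12 for cholesterol genes, with 1 of 24 positive, and -0.12 for fatty acid genes, which had -0.22 with all libraries. The SD of these list levels between Rv1_Luc replicates was 0.15 for cholesterol and 0.11 for fatty acid genes. In the Rv1_Luc interaction itself 1 of the 24 cholesterol and 3 of the 12 fatty acid genes passed an FDR of 0.05. Without that library 0 and 1 did, so few single genes show a negative interaction in Rv1_Luc. At an FDR under 0.05, a limit that 1.18% of all genes passed, the 3-way contrast differed for 15 of the 24, LSS (1.03), DHCR7 (0.84) and TM7SF2 (0.74) among them, and for 8 of the 12 fatty acid genes, with FADS2 at 0.62. Of the 21 androgen response genes 17 were positive in Rv1_Luc (median 0.10). Their list level in Rv1_Luc went from -0.65 to -0.59 in CSS vehicle to -0.18 to -0.15 in CSS SNX631, against -0.042 to 0.045 and -0.018 to 0.17 in FBS. By this level, which is a median of levels and not of differences, the CSS rise was larger in Rv1_Luc than in Rv1_WT, while the median of the fitted interactions was smaller. HPGD (0.42) and PMEPA1 (0.21) were 2 of its 4 genes past an FDR of 0.05 there, where 0.51% of all genes passed. All 7 genes of the mitosis list that passed in Rv1_WT, and so were chosen by that result, had values between -0.14 and 0.12 in Rv1_Luc. The 3-way contrast passed an FDR of 0.05 for 1 of the 20 mitosis genes.

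**Figure D5:**
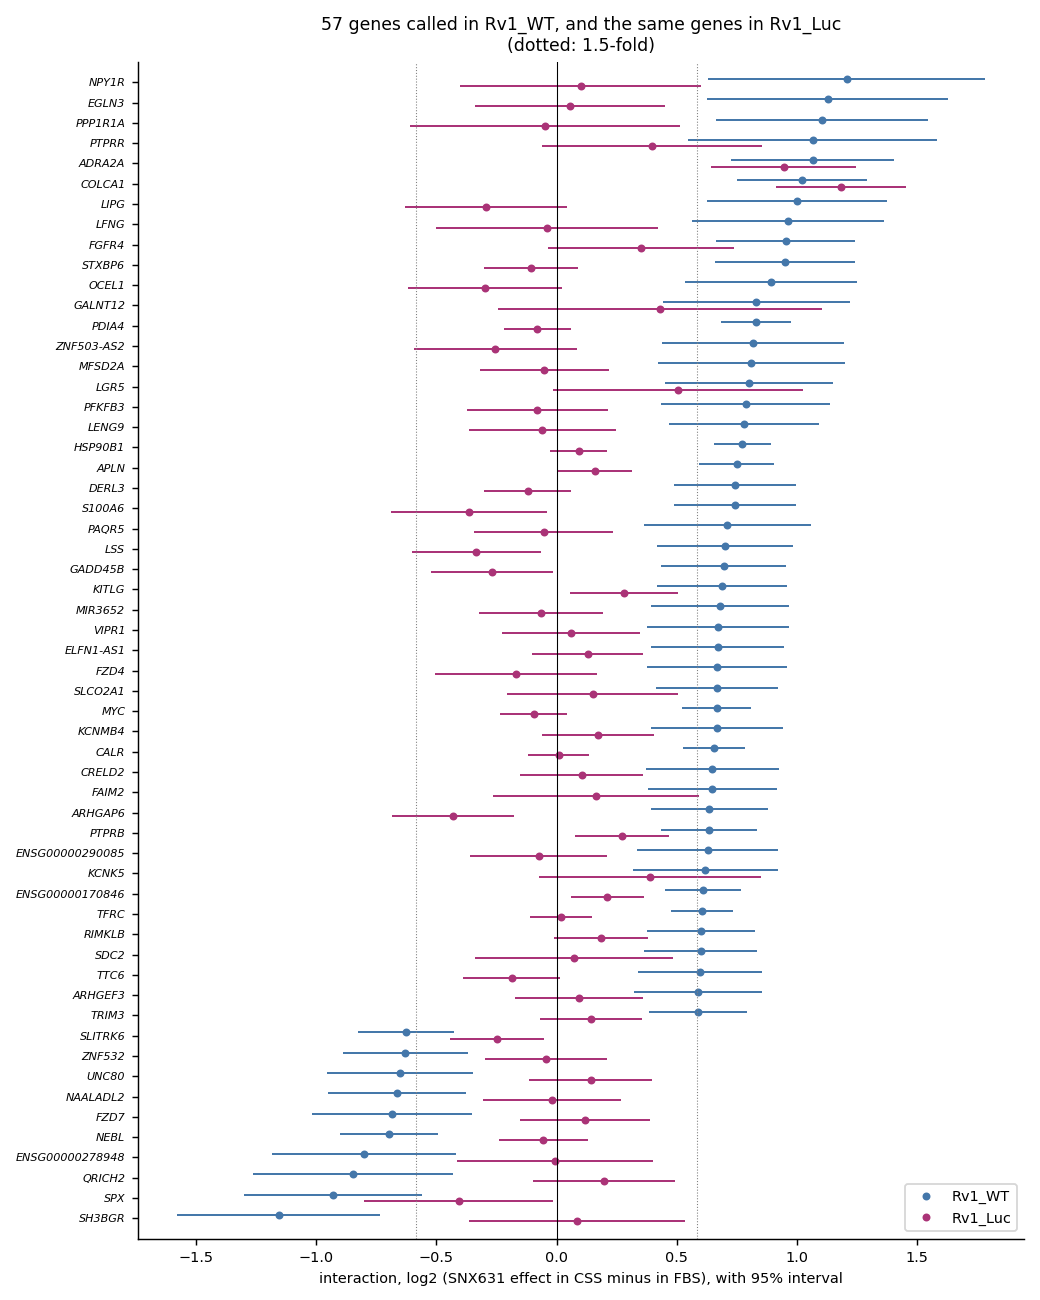
Interaction (x axis, log2) with its 95% interval for 57 of the 59 called genes in Rv1_WT and for the same genes in Rv1_Luc, ordered by the Rv1_WT value, with dotted lines at 1.5-fold. The Rv1_WT points were chosen by this value. COLCA1 and ADRA2A lie past the dotted line in both lines, and most other Rv1_Luc points lie near 0.

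Calls near the limits moved in and out with single libraries. Of the 59 genes 26 were called in all 12 fits that each left out an Rv1_WT library, and 33 lost the call in at least 1, with the direction kept throughout. Those kept in 9 to 11 fits, beside genes given above, were ENSG00000170846, LFNG, ARHGAP6, NAALADL2, ZNF532 and MIR3652. A further 9 were kept in 5 to 8 fits (TRIM3, RIMKLB, SDC2, TTC6, FZD4, VIPR1, ARHGEF3 and GALNT12 among them) and 13 in 1 to 4 (EGLN3, PFKFB3, ZNF503-AS2, ENSG00000290085, UNC80, ENSG00000278948, NPY1R, MFSD2A, KCNK5, FZD7, PAQR5, PTPRR and QRICH2). Just inside the FDR limit were PAQR5, PTPRR and QRICH2 at 0.00885, and just outside it were the growth factor gene VEGFC (1.12, 0.0102), BMP6 (0.81, 0.0103) and GDPD1 (0.65, 0.0103), all edgeR FDR values. Just outside the fold limit were TMPRSS2 (0.58), ARRDC4 (-0.57) and TM7SF2 (0.57), against TRIM3 (0.59) and ARHGEF3 (0.59) just inside it.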

How the data were processed

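The deposited table holds estimated counts per gene, which the authors made, per the labels' processing notes, with FastQC, cutadapt 2.8, STAR 2.7.2b and featureCounts (Subread 2.0.3) on GRCh38.p13 and GRCm39. The annotation release and the counting strand are not given in the sources used here. Of the nonzero values 81.65% were whole, and all were rounded. Rv1_WT libraries held 13.2 to 18.2 M counts and Rv1_Luc libraries 19.5 to 27.3 M. One edgeR 4.0.16 quasi-likelihood fit (R 4.3.3, TMM, filterByExpr with a minimum count of 10 and total of 15) took all 48 libraries as 16 group means, with 32 residual degrees of freedom. Genes were called at a Benjamini-Hochberg FDR under 0.01 and over 1.5-fold. The members and the gene lists were chosen with earlier results of these data known. Called genes with a symbol were named, the 12 of lowest p in full except for items not reported here, those without by identifier, with up to 3 further genes of lowest p or of known role per list, up to 5 of lowest p in the contrast of the lines, and those nearest the limits. Alternatives were DESeq2 1.42.0, other scalings, no filter, Rv1_WT libraries alone, thinned counts, a replicate block, other thresholds and leaving out each library.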

Additional observations from a re-analysis of the deposited data

Results flagged for a closer look

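The serum dependence of the SNX631 response was tested for a difference between Rv1_WT and Rv1_Luc. Of all genes tested 51 (0.255%) passed an edgeR FDR under 0.01 and 1.5-fold, 48 more positive in Rv1_WT and 3 more negative. Values below are the Rv1_WT interaction minus the Rv1_Luc interaction on the log2 scale. They are given for only part of the 51. Apart from CNN3, named for its low p here, each gene was also called in the Rv1_WT interaction. That choice favours large values with the Rv1_WT sign, so the list is no independent account of how the lines differ. The ER genes PDIA4 (0.91), HSP90B1 (0.68), CALR (0.65) and DERL3 (0.86) were more positive in Rv1_WT. So were the growth-related genes MYC (0.76), TFRC (0.59) and GADD45B (0.96), the latter with an FDR of 0.000732. The peptide gene APLN had a difference of 0.59. The cytoskeletal and exocytosis genes ARHGAP6 (1.07), STXBP6 (1.06) and CNN3 (0.71) and the lipid genes LIPG (1.29) and LSS (1.03) had the same sign. S100A6 (1.105), OCEL1 (1.19) and TTC6 (0.78) were also more positive in Rv1_WT. NEBL was more negative in Rv1_WT, at -0.64 (edgeR FDR 0.00365).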

How the results depend on the processing

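All 59 genes kept their direction under every alternative tried, and 24 were called in all of them apart from the changed thresholds. The count was 62 with DESeq2 size factors, 48 with library size alone, 85 with no filter, 87 with the 12 Rv1_WT libraries alone, 59 with thinned counts, 73 with the DESeq2 Wald test and 40 to 68 without 1 library, which kept 36 to 47 of the 59. An FDR under 0.05 with no fold limit gave 627 (441 more positive, 186 more negative), and a test against a 1.5-fold difference gave 1 (1 and 0, edgeR, with 159 and 117 at an unadjusted p under 0.05). The 49 more positive genes became 33 to 51 without 1 library. The 10 more negative genes became 19 with no filter, 17 with the Rv1_WT libraries alone and 7 to 17 without 1 library. A replicate block called 69 genes, 53 more positive and 16 more negative, with LSS, ZNF503-AS2 and FZD7 not among them. Correlations of the deviations of same-numbered libraries were small (18 values from -0.022 to 0.084, median 0.017). Those of differently numbered libraries ran from -0.091 to 0.049 (36 values, median -0.0054). Such values cannot decide whether the numbers mark a pairing. In Rv1_Luc the 16 calls became 50 with no filter, 102 at an FDR under 0.05, 1 against 1.5-fold and 8 to 31 without 1 library. The 51 calls between the lines became 98, 236, 0 and 40 to 83 in the same order. The ERAD median was -0.013 with library size alone and -0.0056 with thinned counts, and with library size alone those of translocation (0.024), ER to Golgi (-0.037) and tRNA synthetases (-0.033) moved past the spread of libraries. Without 1 library, list medians ran from 0.035 to 0.074 for translocation, -0.033 to 0.021 for the unfolded protein response sensors, -0.11 to -0.056 for ATF4, 0.32 to 0.40 for androgen response, 0.16 to 0.22 for ribosome biogenesis, -0.084 to -0.0058 for heat shock, -0.19 to -0.064 for the aryl hydrocarbon receptor, 0.0054 to 0.17 for immediate-early genes and 0.028 to 0.098 for NRF2. In Rv1_Luc, in fits added after the data were seen, the medians without 1 library ran from -0.081 to -0.0012 for ER chaperones, -0.33 to -0.12 for cholesterol, -0.26 to -0.12 for fatty acid and 0.069 to 0.13 for androgen genes, and 12 to 20 of the 24 cholesterol genes differed between the lines at an FDR under 0.05. The cause of these shifts was not tested. The median 95% interval over genes at 1 CPM or more was 0.44 wide.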
